A study of Mus musculus with 8 samples.

Results

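The death receptor and caspase genes described here are Fas, Tnfrsf10b, Fadd, Casp8, Cflar, Casp9, Ei24 and Xiap, which were chosen by symbol and are 8 of the 39017 genes in the gene table. Each was found once, and all 8 passed the filter on low values, a mean of at least 10 normalized counts. The study asked what the arginine methyltransferase Prmt5 does in activated B cells, and measured RNA by sequencing in induced germinal center-phenotype B cells (iGBs). These are mouse B cells of the C57BL6/J strain grown on 40LB cells, a fibroblast line that expresses CD40L and BAFF, with IL-4 at 1 ng per mL, and taken at day 4. The Prmt5-null group held 4 libraries, each from 1 Prmt5 F/F Cγ1-cre mouse (10617, 10618, 10770 and 10771), and the control group 4 libraries, each from 1 mouse with Cγ1-cre alone (CTRL-10370, CTRL-10596, CTRL-10597 and CTRL-10650). The Cγ1-cre allele was thus present in both groups, and it is expressed in B cells once they are activated.

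Cells can be killed from outside or from inside. In the extrinsic pathway, a ligand binds a death receptor such as Fas or the TRAIL receptor encoded by Tnfrsf10b, the adaptor Fadd joins the receptor to caspase-8, and cFLIP, the product of Cflar, competes with caspase-8 for that adaptor. In the intrinsic pathway, damage to mitochondria releases cytochrome c, which assembles with Apaf1 and caspase-9, and Xiap binds and inhibits caspase-9 and the executioner caspases. Germinal center B cells carry much Fas on their surface, and Fas and Tnfrsf10b are known targets of the stress-induced factor p53, as is Ei24, a protein of the endoplasmic reticulum.

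The libraries held 42752293 to 47174851 reads on genes in the Prmt5-null group and 36731721 to 50366174 in the control group. Prmt5 itself had 1060 to 1994 normalized counts (reads divided by the size factor of the library) in Prmt5-null and 11084 to 13087 in control libraries, so the level of the targeted gene matched the label of all 8 libraries. The 8 B cell markers summed to 168848 to 196708 normalized counts in Prmt5-null and 167873 to 188256 in control libraries. The 10 fibroblast markers summed to 5656 to 9985 in Prmt5-null and 3477 to 6179 in control libraries, ranges that overlapped, and all 8 of those tested had a higher estimate in Prmt5-null, 4 of them past an adjusted p of 0.05. Lum and Postn were the fibroblast markers with a mean under 10. T cell markers other than Lck (5 of 6) had means under 10, and 1 of them was at 0 in every library. With Lck, the 6 summed to 316 to 481 normalized counts in Prmt5-null and 674 to 788 in control libraries. The myeloid markers summed to 696 to 918 normalized counts in Prmt5-null and 679 to 748 in control libraries, with 2 of 6 under a mean of 10.

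RefSeq windows on GRCm38.p6, from 250 bases before to 50 bases after a gene's start, were matched by symbol for 7 of the 8 genes, and Tnfrsf10b had no entry. The stretches of 3 of them that lie upstream of every annotated exon are printed because these genes passed the test described further on. They run 5′ to 3′ on the gene's strand, and capitals mark the GC box, GGGCGG or, on the other strand, CCGCCC. The Fas stretch is chr19:34290409-34290658 on the plus strand, the Casp9 stretch is chr4:141793362-141793611 on the plus strand, and the Ei24 stretch is chr9:36797394-36797584 on the minus strand.
Fas: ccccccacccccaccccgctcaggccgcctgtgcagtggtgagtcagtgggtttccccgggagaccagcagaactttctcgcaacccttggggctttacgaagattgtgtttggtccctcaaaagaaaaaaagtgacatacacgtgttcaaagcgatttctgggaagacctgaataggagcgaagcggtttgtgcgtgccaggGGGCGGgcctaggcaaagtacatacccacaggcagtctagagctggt
Casp9: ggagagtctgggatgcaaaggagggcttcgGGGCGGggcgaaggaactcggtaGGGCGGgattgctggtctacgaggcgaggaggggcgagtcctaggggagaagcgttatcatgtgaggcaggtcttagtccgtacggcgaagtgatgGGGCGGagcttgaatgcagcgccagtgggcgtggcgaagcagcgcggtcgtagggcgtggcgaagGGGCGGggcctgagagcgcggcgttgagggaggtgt
Ei24: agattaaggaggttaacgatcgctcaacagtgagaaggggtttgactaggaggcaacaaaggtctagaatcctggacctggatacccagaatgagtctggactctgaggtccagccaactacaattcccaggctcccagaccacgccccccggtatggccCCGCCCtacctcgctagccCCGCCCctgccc

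Fas had 1 GC box in the printed stretch, Ei24 2 and Casp9 4. A GC box was present in 35.7% of all 32851 RefSeq windows. It was also present in the Fadd window and in 2 of the 3 Xiap windows, genes that did not pass the test, and had no match in the Casp8 and Cflar windows. A match to the p53 half-site lay in the Ei24 window alone among these genes, at chr9:36797335-36797344, within an annotated exon and 10 bases before the RefSeq start. It read GGGCATGCCC, and 8.36% of all windows held such a match. An NF-κB site was matched in 1 of the 3 Xiap windows and in 8.46% of all windows, CCAAT or its reverse complement only in the Casp8 window among these genes (37.4% of all), and TATAAA or its reverse complement in the windows of Cflar and Xiap (13.6% of all). The pair of matches in the Cflar window overlapped.

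The RNA of both death receptors was higher in Prmt5-null iGBs. Fas lies on chromosome 19 from 34290666 to 34327772 on the plus strand, with 2.06 kb of exon. Fas had 6150, 7246, 8306 and 7478 normalized counts in Prmt5-null libraries 10617, 10618, 10770 and 10771, and 5233, 5026, 5197 and 5461 in libraries CTRL-10370, CTRL-10596, CTRL-10597 and CTRL-10650. Every Prmt5-null library was above every control library. The Prmt5-null libraries spread more widely, with a mean of 7295 ± 889 (SD, n = 4) against 5229 ± 179 (SD, n = 4). The fold change was 1.39, with a 95% interval from 1.21 to 1.59 (log2 value 0.47 with a standard error of 0.09, limma adjusted p = 0.00504 over 16250 genes). Fas thus rose, but by less than the 1.5-fold at which a gene was called. In these bulk samples, a shift in the share of cells that express a gene and a change in RNA per cell cannot be told apart. Fas is also expressed by fibroblasts, whose summed markers were given above. Among the Prmt5-null libraries, the fibroblast sum was 5656 in 10618, 7028 in 10771 and 8254 in 10770, in the same order as their Fas values, while 10617 had the highest sum, 9985, and the lowest Fas value. The part of these cells in the difference was not tested.

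**Figure D1:**
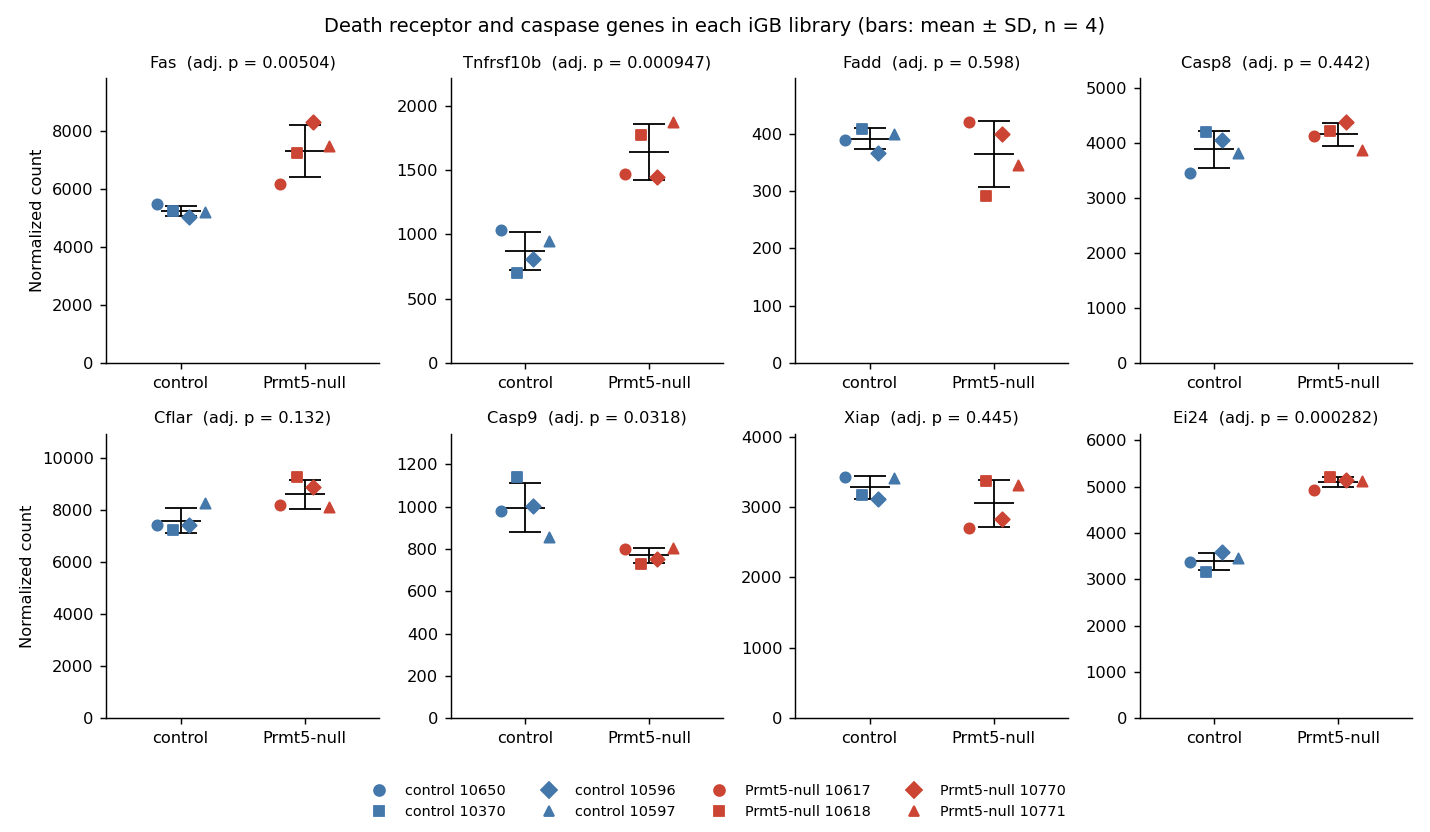
Normalized count (y axis, from 0) of each gene in the 4 control and 4 Prmt5-null libraries (x axis). Each point is 1 library, with its own marker shape within a group, and bars give the mean ± SD. The groups are apart for Fas, Tnfrsf10b and Ei24, which are higher in Prmt5-null, and for Casp9, which is lower, while those of Fadd, Casp8, Cflar and Xiap overlap.

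Tnfrsf10b, on chromosome 14 from 69767472 to 69784411 on the plus strand, changed most. It had 1472, 1770, 1446 and 1875 normalized counts in Prmt5-null libraries 10617, 10618, 10770 and 10771, and 699, 807, 944 and 1034 in libraries CTRL-10370, CTRL-10596, CTRL-10597 and CTRL-10650. The lowest Prmt5-null library was 1446 and the highest control library 1034, so the groups did not overlap. The means were 1641 ± 215 and 871 ± 148 (SD, n = 4 each). The fold change was 1.89, with a 95% interval from 1.55 to 2.31 that lay wholly above 1.5 (log2 value 0.92 with a standard error of 0.13, limma adjusted p = 0.000947). Among the Prmt5-null libraries, 10618 and 10771 were the higher pair for Tnfrsf10b, for Xiap and for the RNA left over from Prmt5 (1994 and 1808 against 1291 and 1060 normalized counts), and the lower pair for Fadd. Fas, Casp8, Cflar, Casp9 and Ei24 did not divide these libraries into the same pairs. The pairing is a description of 4 libraries, and no test was made of it.

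Fadd, the adaptor that both receptors share, did not pass the test. It lies on chromosome 7 from 144577318 to 144582463 on the minus strand. Fadd had 421, 292, 399 and 347 normalized counts in Prmt5-null libraries 10617, 10618, 10770 and 10771, and 409, 367, 401 and 389 in libraries CTRL-10370, CTRL-10596, CTRL-10597 and CTRL-10650. The Prmt5-null group held both the highest and the lowest of the 8 values. The means were 365 ± 57.8 and 391 ± 18.1 (SD, n = 4 each), and the log2 fold change was -0.11, with a 95% interval from -0.39 to 0.17 (adjusted p = 0.598 from limma), so a fall to 0.761 of the control level and a rise of 1.12-fold both lie within it. The antisense transcript Faddos covers 239 exonic bases of Fadd (6.12%), and the strand setting of the counting was not given in the sources used here, so reads of Fadd and Faddos cannot be told apart there.

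Within a library, the ratio of receptor to adaptor does not depend on the scaling between libraries. Per kb of exon, Fas was 27.6, 47.0, 39.4 and 40.8 times Fadd in Prmt5-null libraries 10617, 10618, 10770 and 10771, and 24.2, 25.9, 24.6 and 26.6 times Fadd in libraries CTRL-10370, CTRL-10596, CTRL-10597 and CTRL-10650. Every Prmt5-null ratio was above every control ratio, though that of library 10617 only just. The mean log2 ratio was 0.59 higher in Prmt5-null (two-sided exact permutation p = 0.0286, the smallest that 4 against 4 allows, and 0.0857 after Benjamini-Hochberg adjustment over the 3 ratios tested), so the difference did not pass after adjustment. Leaving out 1 library at a time gave differences from 0.49 to 0.74.

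Casp8, the initiator caspase of the extrinsic pathway, and Cflar, its rival for Fadd, are neighbours on the plus strand of chromosome 1. Cflar runs from 58711508 to 58758884 and Casp8 from 58795374 to 58847503, with 36489 bases between them that hold the gene Gm3841. Casp8 had 4134, 4216, 4383 and 3880 normalized counts in Prmt5-null libraries 10617, 10618, 10770 and 10771, and 4207, 4053, 3819 and 3447 in libraries CTRL-10370, CTRL-10596, CTRL-10597 and CTRL-10650. The groups overlapped widely, and 1 control library, CTRL-10650, was lower than the other 7. The means were 4153 ± 210 and 3882 ± 331 (SD, n = 4 each), and the log2 fold change was 0.10, with a 95% interval from -0.07 to 0.27 (adjusted p = 0.442 from limma), which allows at most a 1.21-fold rise.

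Cflar had 8199, 9277, 8916 and 8134 normalized counts in Prmt5-null libraries 10617, 10618, 10770 and 10771, and 7253, 7421, 8301 and 7432 in libraries CTRL-10370, CTRL-10596, CTRL-10597 and CTRL-10650. Control library CTRL-10597 lay above 2 of the Prmt5-null libraries, and the other 3 control libraries below all of them. The means were 8631 ± 557 and 7602 ± 473 (SD, n = 4 each). In limma, this log2 difference of 0.18 (standard error 0.08) gave an adjusted p of 0.132 and did not pass, although its own 95% interval, which is not adjusted over genes, ran from 0.02 to 0.35. Before division by length, Cflar had more counts than Casp8 in every library. The length counts every annotated exon, 12.67 kb for Cflar and 2.893 kb for Casp8, so the size of their ratio per kb is uncertain. Per kb of exon, Cflar was 0.475 ± 0.0213 times Casp8 in Prmt5-null and 0.450 ± 0.0521 times in control libraries (SD, n = 4 each). These ratios, 0.453 to 0.502 and 0.394 to 0.496, overlapped, and the log2 ratio differed by 0.08 (two-sided exact permutation p = 0.4 before and after adjustment). Leaving out 1 library at a time moved this difference between 0.02, without CTRL-10370, and 0.13, without CTRL-10597 or CTRL-10650.

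Casp9, the initiator caspase of the intrinsic pathway, was lower in Prmt5-null iGBs. It lies on chromosome 4 from 141793612 to 141815976 on the plus strand. Casp9 had 798, 730, 753 and 804 normalized counts in Prmt5-null libraries 10617, 10618, 10770 and 10771, and 1139, 1003, 859 and 980 in libraries CTRL-10370, CTRL-10596, CTRL-10597 and CTRL-10650. The highest Prmt5-null library, 804, was below the lowest control library, 859, and the control libraries spread more. The means were 771 ± 35.8 and 996 ± 115 (SD, n = 4 each), a fold change of 0.778 with a 95% interval from 0.670 to 0.904 (log2 value -0.36 with a standard error of 0.10, limma adjusted p = 0.0318). The fall is smaller than 1.5-fold. The adjusted p from limma was close to the threshold and rose above it without Prmt5-null library 10617 (0.0558), 10618 (0.0621) or 10771 (0.0642), or without control library CTRL-10650 (0.0653), CTRL-10370 (0.0876) or CTRL-10596 (0.0782), so that 6 of the 8 fits that left out 1 library had an adjusted p above 0.05, with the log2 fold change between -0.43 and -0.29 over all 8. The exons of Casp9 share 94 bases (1.81%) with Cela2a and Ctrc on the other strand, neither of which exceeded 3.58 normalized counts.

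Xiap, the inhibitor of caspase-9 and of the executioner caspases, lies on chromosome X from 42059679 to 42109656 on the plus strand. It had 2703, 3362, 2825 and 3312 normalized counts in Prmt5-null libraries 10617, 10618, 10770 and 10771, and 3170, 3106, 3416 and 3422 in libraries CTRL-10370, CTRL-10596, CTRL-10597 and CTRL-10650. Prmt5-null libraries 10617 and 10770 were below all control libraries, and the other 2 lay among them. The means were 3050 ± 335 and 3279 ± 164 (SD, n = 4 each), with a log2 fold change of -0.11 and a 95% interval from -0.30 to 0.08 (adjusted p = 0.445 from limma). Per kb of exon, Xiap was 2.18 ± 0.286 times Casp9 in Prmt5-null and 1.83 ± 0.283 times in control libraries (SD, n = 4 each). The ratios overlapped, and the log2 ratio was 0.25 higher in Prmt5-null (two-sided exact permutation p = 0.143, or 0.214 after adjustment over the 3 ratios). It ranged from 0.17 to 0.34 with 1 library left out.

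Ei24, the p53-induced protein of the endoplasmic reticulum, was higher in Prmt5-null iGBs and had the least spread of the 8 genes among the Prmt5-null libraries. It lies on chromosome 9 from 36779159 to 36797393 on the minus strand. Ei24 had 4934, 5200, 5138 and 5122 normalized counts in Prmt5-null libraries 10617, 10618, 10770 and 10771, and 3159, 3592, 3448 and 3365 in libraries CTRL-10370, CTRL-10596, CTRL-10597 and CTRL-10650. The gap between the groups, from 3592 to 4934, was wider than either group. The standard deviation was 2.25% of the mean in Prmt5-null and 5.34% in control libraries. The fold change was 1.505, with a 95% interval from 1.36 to 1.67 (log2 value 0.59 with a standard error of 0.07, limma adjusted p = 0.000282). This passed the 1.5-fold limit by little, and without Prmt5-null library 10618 (log2 fold change 0.58) or control library CTRL-10370 (0.56) Ei24 was no longer called, although its adjusted p from limma was at most 0.00202 in any fit that left out 1 library. Ei24 shares 324 exonic bases (6.66%) with Gm26787 on the other strand, which had 2.78 to 10.8 normalized counts in the 8 libraries.

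Over the 8 genes, 3 (Fas, Tnfrsf10b and Ei24) were higher and 1 (Casp9) was lower in Prmt5-null iGBs at an adjusted p below 0.05 from limma, where 6.51% of all 16250 genes tested were higher and 7.33% lower. With at least 1.5-fold also required, 2 (Tnfrsf10b and Ei24) were called higher and 0 lower, against 3.49% and 2.99% of all genes. limma, edgeR and DESeq2 each called 0 lower, and Casp9, the 1 gene lower at an unadjusted p below 0.05 in each of them, passed the adjusted p in all of them but not the fold. The 4 genes past the adjusted p were also the 4 whose groups did not overlap, which was so for 19.8% of all genes. The median log2 fold change was 0.14 over the 8 genes and 0.00 over all genes tested. Fadd, Casp8, Cflar and Xiap were the 4 that did not pass, and their 95% intervals lay within 1.5-fold in either direction.

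**Figure D2:**
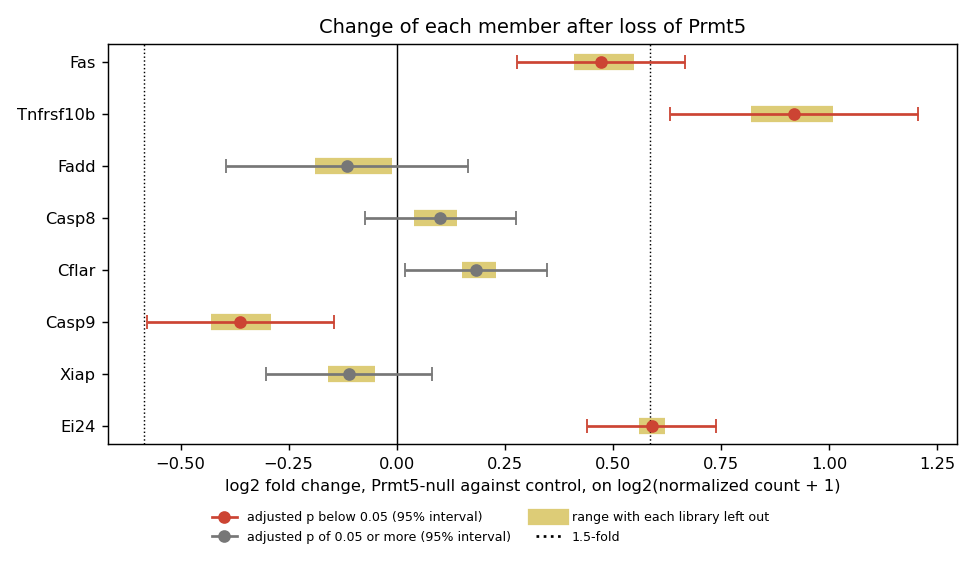
Log2 fold change of each gene, Prmt5-null against control, on log2(normalized count + 1) (x axis). Points and lines are the estimate and its 95% interval, yellow bars the range of estimates when each library in turn was left out, and dotted lines 1.5-fold. Tnfrsf10b at 0.92 is farthest from 0, Ei24 at 0.59 sits on the 1.5-fold line, and the intervals of Fadd, Casp8 and Xiap cross 0.

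Between genes, levels can be compared only per length. In control iGBs, the order by normalized counts per kb of exon was Fas (2536), Casp8 (1342), Ei24 (697), Cflar (600), Xiap (346), Casp9 (192), Tnfrsf10b (160) and Fadd (100.3). Ei24 and Cflar overlapped between their libraries, as did Casp9 and Tnfrsf10b, while the other neighbours in this order did not. In Prmt5-null iGBs, the order was Fas (3538), Casp8 (1436), Ei24 (1047), Cflar (681), Xiap (322), Tnfrsf10b (301), Casp9 (148) and Fadd (93.5). Here only Xiap and Tnfrsf10b overlapped. The 2 death receptors thus stood far apart, with Fas at the top and Tnfrsf10b near the bottom, and the adaptor was lowest in both groups. Casp9 and Tnfrsf10b, next to each other in control iGBs, changed places, with Tnfrsf10b at 2.03 times Casp9 per kb in Prmt5-null. The exonic length counts every annotated exon and so understates a gene whose long isoforms are little used.

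**Figure D3:**
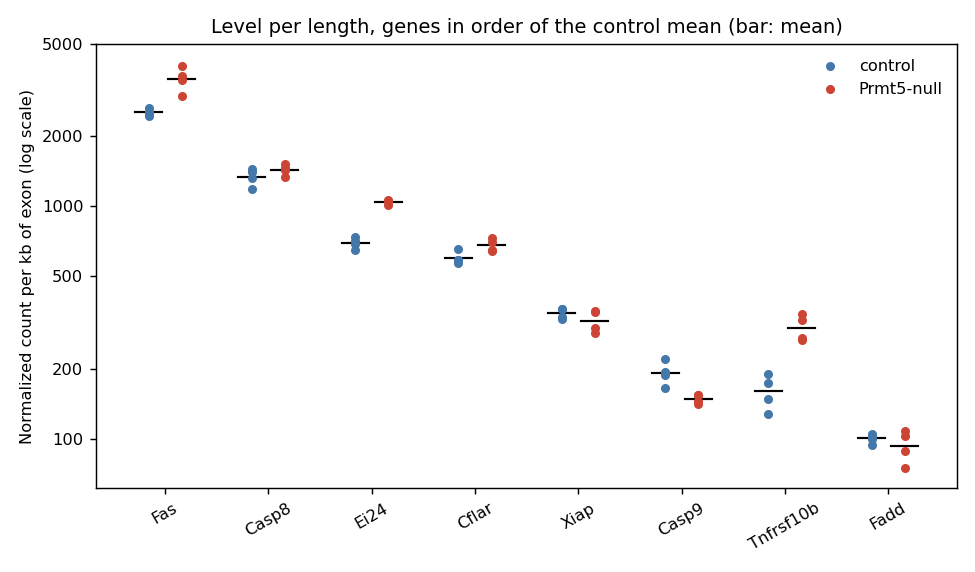
Normalized count per kb of exon (y axis, log scale) of each gene, in order of the control mean (x axis). Each point is 1 library, and bars are group means. Fas is highest (2536 in control and 3538 in Prmt5-null) and Fadd lowest (100.3 and 93.5).

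Splicing was deposited as 1918 events in 1519 genes, for 5 event types, limited to events that the authors' analysis listed. None of the 8 genes was among them, a count of 0 that rests on the authors' listing with rMATS and on no test made here, although all 8 had a mean above 50 normalized counts. Of the 13300 genes with such a mean, 11.4% were listed. Among other genes of the pathway, 9 of 61 with such a mean were listed, namely Aen, Birc6, Diablo, Htra2, Mlkl, Pidd1, Rnf31, Traf2 and Xaf1. Inclusion levels of the 8 genes were not analysed here.

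Of 70 other genes of the pathway, 64 were tested, with 12 higher and 4 lower at an adjusted p below 0.05 from limma, and 8 higher and 4 lower at 1.5-fold or more. Their median log2 fold change was 0.08. Among other ligands and receptors, 1 of 8 tested was called higher and 3 lower. The ligand genes Tnf and Lta fell by 0.63 and 0.72 on the log2 scale (adjusted p = 0.00778 and 0.00402 from limma), with Tnf at 560 ± 90.2 normalized counts in Prmt5-null and 863 ± 90.2 in control iGBs (SD, n = 4 each). Of the receptor genes, Tnfrsf22 fell by 0.61 and Tnfrsf26 rose by 0.62 (adjusted p = 0.0174 and 0.00161 from limma). They lie in a cluster of related genes. The paper counted only reads that mapped uniquely, so reads that match more than 1 copy were left out and both values are uncertain. Fasl, which encodes the ligand of Fas, was under the filter, with 1.87 to 8.66 normalized counts in Prmt5-null and 0 to 4.31 in control libraries, and was not tested. Tnfsf10, which encodes TRAIL, had 19.6 ± 8.77 and 35.4 ± 18.5 normalized counts (SD, n = 4 each) and did not pass (adjusted p = 0.297 from limma). Fasl and Tnfsf10 are named beyond the rule for named genes, after their values were seen, as the ligands of these receptors.

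Among 14 other adaptors, kinases and ubiquitin enzymes of the receptor complexes, 2 were called higher and 0 lower by limma, edgeR and DESeq2 alike, with 4 higher and 1 lower at an unadjusted p below 0.05. Pidd1, a death domain protein that can activate caspase-2, rose from 858 ± 155 to 1602 ± 319 normalized counts (SD, n = 4 each, log2 fold change 0.90, adjusted p = 0.00354 from limma). Tnfaip3, the ubiquitin-editing protein A20, rose by 0.65 on the log2 scale, from 6207 to 7328 normalized counts over the control libraries to 9687 to 11116 over the Prmt5-null libraries (adjusted p = 0.00034 from limma). The other 12 had no adjusted p below 0.05 in either direction.

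Of 7 other caspases tested, 0 were called at 1.5-fold by limma, edgeR or DESeq2, while 1 was higher at an adjusted p below 0.05 in limma and edgeR and 2 in DESeq2, and 3 were higher at an unadjusted p below 0.05 in each. The 6 apoptosome and mitochondrial genes held 1 called lower, Htra2, a mitochondrial protease that binds Xiap, at 2277 ± 135 against 3554 ± 230 (SD, n = 4 each, log2 fold change -0.64, adjusted p = 0.000327 from limma). The exons of Htra2 share 1288 bases (43.7%) with Loxl3 and Aup1 on the other strand. With the strand setting of the counting not known, reads of these genes cannot be told apart there, so the value of Htra2 is uncertain. Apaf1, the scaffold that binds caspase-9, rose by 0.34 on the log2 scale (adjusted p = 0.0155 from limma) and was named after its value was seen, and Casp9 itself was lower, as described above. Of the 8 tested among other inhibitors of apoptosis and Xaf1, 0 passed in limma, edgeR or DESeq2. The lowest adjusted p was 0.238 from limma, and at an unadjusted p below 0.05 limma and edgeR had 0 and DESeq2 1, which was lower. Of 8 proteins that executioner caspases cut, or that act with them, 1 was called, Dffb, the nuclease that cuts DNA in dying cells, which rose by 0.62 (adjusted p = 0.000377 from limma).

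**Figure D4:**
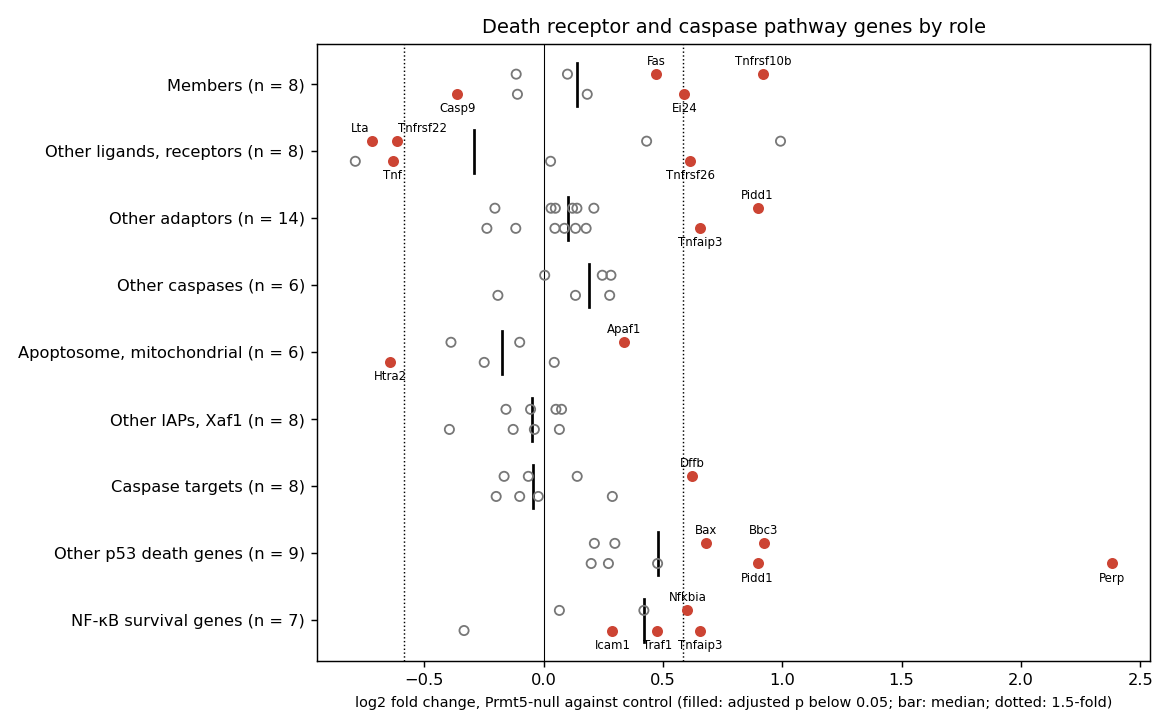
Log2 fold change, Prmt5-null against control (x axis), of the genes tested, grouped by role (y axis, with the number drawn). Filled points passed an adjusted p of 0.05 and carry their symbol, black bars are medians of the points drawn and dotted lines 1.5-fold, and 1 of the other caspases tested is not drawn. Other inhibitors of apoptosis and Xaf1, drawn in 1 row, have a median of -0.05 and a lowest value of -0.39. All 9 other p53 targets (the row of p53 death genes) lie above 0, with a median of 0.48.

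All 9 other listed genes known as p53 targets had a higher estimate in Prmt5-null iGBs, and 4 were called, namely Perp, Bbc3, Pidd1 (also counted among the adaptors above) and Bax, with log2 fold changes of 2.38, 0.92, 0.90 and 0.68. Their median of 0.48 stands beside 0.00 for all genes, and the list was written with earlier results of these data known. At the adjusted p alone, limma and edgeR had 4 of the 9 higher and DESeq2 7. Of 7 genes known to be induced by NF-κB, 6 had a higher estimate and 1 a lower one, with a log2 fold change of -0.33 that did not pass. Of the 7, 4 passed the adjusted p from limma and 2, Tnfaip3 and Nfkbia, were called higher at 1.5-fold, with Nfkbia rising by 0.60. Tnfaip3 was also counted among the adaptors above. Cflar, which NF-κB also induces, was not past the threshold, with the values given above. Fibroblasts also express many genes of these lists, and the part of the fibroblast signal given above (5656 to 9985 against 3477 to 6179 normalized counts) in the differences was not tested.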

How the data were processed

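The data are RNA-seq of day 4 iGBs from 4 Prmt5-null and 4 control mice, which the labels call independent biological samples. The authors used elutriation to remove feeder cells, trimmed reads with Trimmomatic 0.32, aligned them to mm10 (GRCm38) with STAR 2.3.0e, counted reads on genes with featureCounts 1.4.4, as listed in the submitters' processing notes, and deposited a normalized signal, each count divided by the DESeq2 1.14.1 size factor of its library. In every library 100% of these values were whole reads after rescaling (tolerance 0.001), which gave the depths. The deposited rMATS tables hold the authors' p-values, FDR values and inclusion differences, which were not used; only the gene and type of each event were.

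The test of genotype was limma 3.58.1, run in R 4.3.3 as lmFit followed by eBayes with its intensity trend, on log2(normalized count + 1), over 16250 genes with a mean of at least 10, with Benjamini-Hochberg adjustment. Fold changes are on that scale, which understates those of low genes. Calls needed an adjusted p below 0.05 and at least 1.5-fold. Ratios were compared over all assignments of the 8 libraries with SciPy 1.17.1 in Python 3.11.15. Fits were tested on simulated counts. Gene positions are from GENCODE vM21 (GRCm38), and Pidd1 was matched by its identifier, since the table has an older symbol.

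The 8 genes and all lists were chosen with earlier results of these data known. The genes named are the 8, Prmt5, and of each other list of pathway genes those called, at most the 5 largest changes. Called genes among the cell type markers are not all named. Alternatives changed the pseudocount, filter, normalization, trend, tool (edgeR 4.0.16 and DESeq2 1.42.0 on recovered reads), thresholds and libraries. A block for the study's 2 experiments was also tried, in all 18 balanced placements, because the labels do not say which libraries belonged to which. 1 gene of the caspase list enters the counts but is not reported here. Other assays of the study were not analysed here.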

Additional observations from a re-analysis of the deposited data

Results flagged for a closer look

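Of the groups of 4 values examined for a library apart from the rest, 1 stood out. Control library CTRL-10597 had 8301 normalized counts of Cflar, while the other 3 control libraries had 7253 to 7432. Chance alone flags about 1 in 20 such groups, and 22 were examined. Without this library the log2 fold change of Cflar was 0.23, the highest of the fits that left out 1 library, and its adjusted p from limma was 0.100, still above the threshold.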

How the results depend on the processing

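Fas, Tnfrsf10b and Ei24 kept their direction and an adjusted p below 0.05 under all 19 alternatives run, and Fadd, Casp8, Cflar and Xiap stayed above it. Log2 fold changes ranged from 0.41 to 0.55 for Fas, 0.82 to 1.01 for Tnfrsf10b and 0.56 to 0.62 for Ei24. Casp9 stayed lower in all 19, at -0.43 to -0.29, but had an adjusted p below 0.05 in 11 only. It was above 0.05 without the trend (log2 fold change -0.36, adjusted p = 0.053 from limma), in 6 fits that left out 1 library, and with the experiment as a block in 2 of 18 placements (-0.36, highest adjusted p = 0.0523 from limma). It stayed below 0.05 in edgeR and DESeq2 (adjusted p = 0.0293 and 0.00553).

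Leaving out 1 library gave 3 to 4 of the 8 genes past the adjusted p, 1 to 2 called at 1.5-fold, and 795 to 1173 genes called in all. At 2-fold, 0 of the 8 and 396 genes in all were called, and at an adjusted p below 0.01, 637 in all. No scaling moved the median of all genes by over 0.1. No paired analysis was possible because the labels number mice and the groups share no number. The alternatives planned for splicing gave no value, since none of the 8 genes was listed. Each of the 8 genes had 286 to 9087 reads in a library.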
